A study of Drosophila busckii and Drosophila melanogaster and Drosophila virilis with 5 samples.

Results

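The TADs described here are the short, gene-rich ones of Drosophila virilis. A topologically associating domain (TAD) is a stretch of chromosome within which contacts are frequent and across whose ends they are rare, taken here as the interval between the centers of consecutive boundaries on a chromosome arm. Of the 2121 D. virilis TADs, 1615 were longer than 10 kb and shorter than 150 kb, and 256 of these (15.9%) held the midpoints of at least 10 protein-coding genes, meaning annotated genes with a coding sequence. The other 1359 TADs of 10 to 150 kb, with 9 coding genes or fewer, were the set they were compared with. The boundary lists of all 3 species together gave 6452 TADs.

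The study mapped chromosome contacts by in situ Hi-C, which cuts and religates crosslinked chromatin, in mixed-sex embryos of 3 Drosophila species (D. melanogaster, D. virilis and D. busckii). The D. virilis embryos were of stage 15 to 16 and came from a strain that the labels give as stock 15010-1051.0 of San Diego, with no transgene or treatment named. Their 2 replicates had been merged into 1 contact map before boundaries were called, and positions are those of the Hi-C assembly of the arms 2L, 2R, 3L, 3R, 4 and X that the authors built from published scaffolds (dvir_caf1). Gene expression was not among the values analyzed, so the embryos could not be checked against marker genes.

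In flies, TADs with many genes are typically regions of housekeeping genes, transcribed in most cells, whereas long gene-poor TADs often hold developmental genes or silent chromatin. Boundaries between fly TADs frequently lie at promoters of active genes, where insulator proteins such as BEAF-32 and CP190 are bound. Gene families that grew by tandem duplication, such as odorant-binding proteins, trypsins and Hsp70 chaperones, can add many genes to a short stretch of sequence.

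These TADs were selected on their gene number and length, so both are given as a description. The TADs held 10 to 47 coding genes with a median of 13, and 127 of the 256 held 10 to 12. Only 23 held 20 or more. Their length ran from 21.3 to 149 kb with a median of 56.8 kb, against 35.8 kb for the other TADs of 10 to 150 kb. Together they covered 18.1 Mb, which was 11.7% of the sequence in TADs, and held 3512 of the 13341 coding genes placed in a TAD (26.3%). Coding gene density had a median of 2.32 genes per 10 kb, against 0.907 in the other TADs, and ranged from 0.677 to 5.54.

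**Figure D1:**
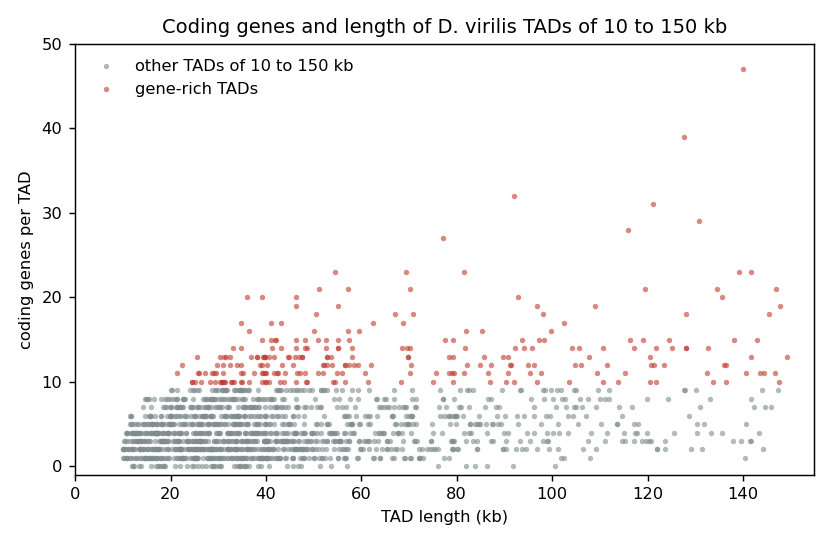
Number of coding genes (vertical axis) against length in kb (horizontal axis) for each of the 1615 D. virilis TADs of 10 to 150 kb, with 1 point per TAD. The 256 gene-rich TADs (red) start at 10 genes by definition, and 23 of them hold 20 or more.

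The limits were crossed by small steps. 46 of the gene-rich TADs held exactly 10 coding genes and 81 of the others held exactly 9. The longest TAD inside the length limit measured 149.3 kb (13 genes) and the shortest outside it with at least 10 genes measured 150.1 kb (22 genes). No TAD of 10 kb or shorter held more than 5 coding genes. A further 165 TADs of 150 kb or longer held 10 or more genes and were left out by their length alone.

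With 1 merged map per species and no boundary list per replicate, no difference below could be tested. Shares are given with exact (Clopper-Pearson) 95% binomial intervals and medians with 95% order-statistic intervals. Both cover only the counting of TADs, genes or boundaries within this map, and neighboring genes are not independent of each other.

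Gene-rich TADs were spread over all arms, with the lowest share on X among the large arms. On 2R, 61 of 317 TADs of 10 to 150 kb were gene-rich (19.2%, interval 15.1 to 24.0%). The counts were 68 of 395 on 3R (17.2%), 52 of 307 on 3L (16.9%) and 46 of 309 on 2L (14.9%). On X, 28 of 259 were gene-rich (10.8%, interval 7.30 to 15.2%). The intervals of 2L, 2R, 3L and 3R overlapped each other, and that of X overlapped each of them, that of 2R by the least. Over these 4 autosomal arms together the share was 17.1% (interval 15.1 to 19.2%), whose lower bound lay just below the upper bound of X.

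The arms also differed in how densely genes were packed overall. X carried 65.7 coding genes per Mb, against 92.4 over 2L, 2R, 3L and 3R and 103 on 2R alone. The part of this difference in the share on X was not tested. Of the coding genes of X, 16.8% lay in gene-rich TADs, against 32.3% on 2R. The fourth chromosome, a small arm whose genes lie in heterochromatin in D. melanogaster, had 1 gene-rich TAD of 28 (3.57%, interval 0.0904 to 18.3%). This TAD (4:557607-678086, from GJ12430 to GJ21224) held 10 genes in 120.5 kb with a median gene span of 8.94 kb, which was long beside the median of 1.90 kb over all genes of gene-rich TADs.

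**Figure D2:**
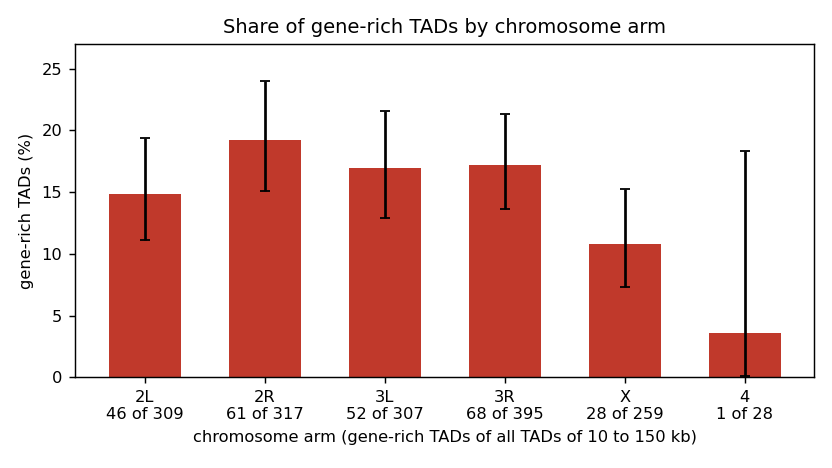
Share of TADs of 10 to 150 kb that were gene-rich, in percent, on each chromosome arm (bars), with exact 95% binomial intervals (lines) and the counts below each arm. 2R has the highest share (19.2%), X has 10.8%, and the interval of arm 4 is wide because the arm has 28 such TADs.

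Along the 5 large arms, gene-rich TADs were found in each of 5 equal parts of the span between the outermost boundaries. On 3R, 15 of the 94 TADs of 10 to 150 kb in the first part were gene-rich and 8 of the 49 in the last. On X, 12 of 67 were gene-rich in the first part and 2 of 34 in the last. Adjacent gene-rich TADs were as frequent as gene-rich TADs in general, since 60 of the 511 TADs next to a gene-rich TAD were themselves gene-rich (11.7%), beside 12.1% of all TADs. The 26 runs comprised 2 or 3 TADs each. The run with the most genes joined 2 TADs on 3L (3L:24329068-24496926) with 51 coding genes in 167.9 kb.

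The genes in gene-rich TADs were short. Median gene span was 1.90 kb (interval 1.82 to 1.95, n = 3512 genes) against 2.73 kb (2.63 to 2.85, n = 5584) in the other TADs, and 8.20% of the genes spanned more than 10 kb, against 19.0%. Span is bound to the rule, since a short TAD has no room for 10 long genes. Coding length is less bound to it, because introns make up most of a long span. Median coding length was 1131 bp (1080 to 1161) against 1335 bp (1296 to 1368), and 1209 bp over all TADs.

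The difference in coding length was present in each length class of TAD. These classes were chosen after seeing the data. The median was 1052 bp against 1354 bp in TADs of 20 to 40 kb, and 1155 against 1395 bp in those of 40 to 60 kb. It was 1152 against 1348 bp at 60 to 100 kb and 1143 against 1266 bp at 100 to 150 kb, and in this last class the intervals overlapped (1050 to 1227 and 1155 to 1365 bp). Within the gene-rich TADs, the 23 with 20 or more genes had the shortest coding lengths, with a median of 836 bp (777 to 939), against 1160 bp in those with 10 to 12 genes.

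Other features of gene structure were compared in the same way. Genes with a single coding exon made up 17.7% (16.5 to 19.0%) of the genes in gene-rich TADs and 13.6% (12.7 to 14.6%) of those in the other TADs, but the share over all TADs, 17.0%, lay inside the first interval. Genes with more than 1 annotated start site made up 14.8% against 20.8%, and 17.2% over all TADs. The median number of coding exons was 3 in both sets. Coding sequence took up a median of 33.7% of a gene-rich TAD, against 17.8% of another TAD, and reached 77.9%.

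Genes in gene-rich TADs lay on the same strand as their neighbor about as often as elsewhere. Of the 3256 pairs of neighboring coding genes within gene-rich TADs, 43.8% (42.1 to 45.5%) were on the same strand, beside 43.6% in the other TADs and 45.1% in all TADs. The 868 divergent pairs, which face each other with their start sites, made up 26.7% (25.1 to 28.2%), beside 23.7% (22.4 to 25.0%) in the other TADs and 24.7% in all. Convergent pairs, which meet at their ends, made up 29.5%, beside 32.7% in the other TADs and 30.2% in all. The same-strand share rose with TAD length in gene-rich TADs, from 39.3% at 20 to 40 kb to 48.4% at 100 to 150 kb, and in the other TADs from 40.5% to 49.7%.

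The distance between neighbors depended on how the genes faced each other. The median gap over all pairs in gene-rich TADs was 0.365 kb, against 0.537 kb in the other TADs. Divergent pairs were close in both sets, with median gaps of 0.305 kb and 0.344 kb, and 75.8% of the divergent pairs in gene-rich TADs were less than 1000 bp apart, against 68.7%. Convergent pairs differed most, with a median gap of 0.136 kb (interval 0.105 to 0.187) against 0.420 kb (0.349 to 0.497). The annotated spans of 28.1% of the convergent pairs in gene-rich TADs overlapped, beside 22.1% in the other TADs and 23.2% in all TADs, and over all pairs the shares were alike (16.5% and 16.6% in the other TADs). Gap, like gene span, is bound to the rule.

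**Figure D3:**
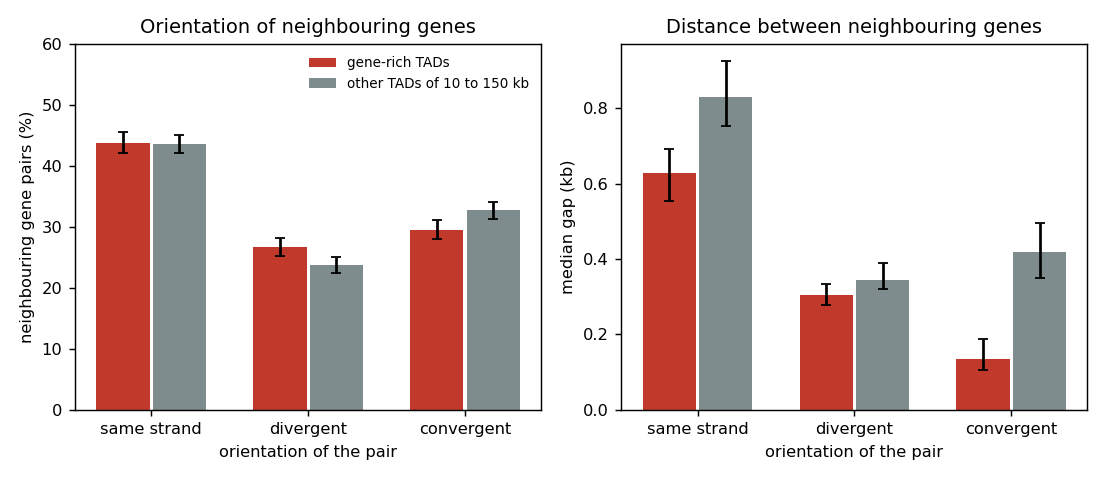
Share of neighboring gene pairs by orientation in percent (left) and median gap between the genes in kb (right), in gene-rich TADs (red, 3256 pairs) and other TADs of 10 to 150 kb (grey, 4278 pairs), with 95% intervals. The same-strand shares are 43.8% and 43.6%, and the largest difference in gap is that of convergent pairs, 0.136 against 0.420 kb.

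The longest run of neighboring genes on 1 strand had a median of 3 genes. It was 2 to 4 genes in 182 TADs and 7 or more in 20, and no gene-rich TAD had all of its genes on 1 strand. The longest run, of 14 genes on the minus strand from GJ14272 to GJ14258, lay on 3R (3R:1651686-1787312) among 20 coding genes. This TAD holds a joint of the assembly, a 5 kb spacer between scaffold pieces, 37.9 kb from its left boundary, with 4 genes of the run before it and 10 after. The run of 14 therefore rests on the order given to those pieces. The next runs, of 11 genes each, contained no joint. One opened the TAD from GJ22034 to GJ20324 (2R:12152260-12244374, 32 genes), where 11 minus-strand genes were followed by 7 on the plus strand. The other closed the X-linked TAD from GJ16615 to GJ16808 (X:7404153-7536860, 14 genes).

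At the other extreme, strands alternated gene by gene in 2 TADs. The first, from GJ13160 to GJ13154 (3L:17821548-17842860), was also the shortest gene-rich TAD and held 11 genes in 21.3 kb, forming 5 divergent and 5 convergent pairs. The second, from GJ11001 to GJ10168 (3R:30962585-30991949), held 10 genes in 29.4 kb. The TAD with the most genes held 47 coding genes in 140.0 kb on 3L (3L:23408024-23547976, from GJ12535 to GJ12562), no run in it was longer than 3 genes, and no tandem cluster was found in it. Its genes carry no symbol in the annotation, so their functions are not given.

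**Figure D4:**
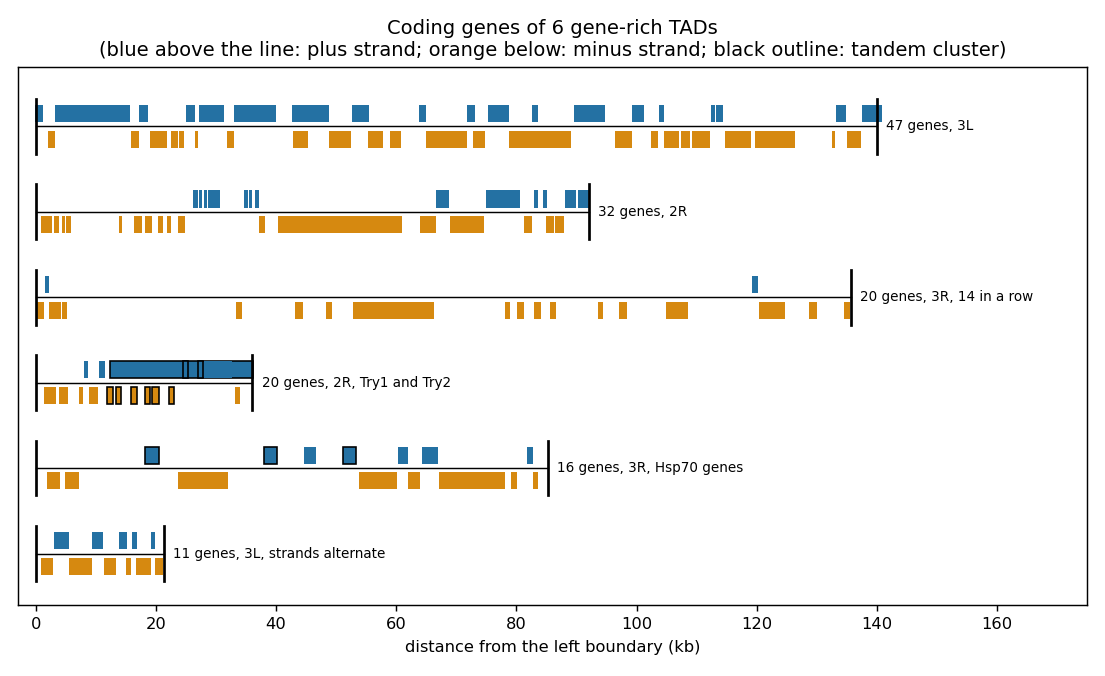
Coding genes of 6 gene-rich TADs, drawn by distance in kb from the left boundary (vertical black lines mark both boundaries), with plus-strand genes in blue above and minus-strand genes in orange below the line and genes of tandem clusters outlined in black. In the TAD with 11 genes the strands alternate gene by gene, in that with 47 no run is longer than 3 genes, and 14 neighboring genes of a TAD on 3R lie on the minus strand.

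Tandem clusters were sought by likeness of gene structure. Genes of 1 TAD were linked when they lay on the same strand, had the same number of coding exons and coding lengths within 5%, and had at most 1 gene between them, and a chain of 3 or more was called a cluster. This is a likeness of structure and not homology. Of the 3256 neighboring pairs, 122 were alike in this sense (3.75%, interval 3.12 to 4.46%), beside 78 pairs in the other TADs (1.82%, 1.44 to 2.27%) and 2.92% of the pairs in all TADs. The share of alike pairs lay above that of the other TADs in each of the 4 length classes. The intervals were apart only at 40 to 60 kb, with 3.40% against 0.825%. They overlapped at 20 to 40 kb, with 3.33% against 1.79%. At 60 to 100 kb the shares were close, with 3.33% against 2.91% and overlapping intervals. The intervals also overlapped at 100 to 150 kb, with 4.86% (3.51 to 6.54%) against 3.61% (1.99 to 5.98%).

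A cluster was found in 27 of the 256 gene-rich TADs (10.5%) and in 15 of the 1359 others (1.10%), beside 64 of all 2121 TADs (3.02%). A TAD with more genes offers more room for a cluster, so this count follows in part from the rule. The gene-rich TADs held 30 clusters with 110 genes in all. These were 3.13% of their genes, beside 0.860% in the other TADs and 1.86% in all TADs. This share is bound to the rule as well, since a TAD with fewer than 3 coding genes can hold no cluster. Of the clusters in gene-rich TADs, 16 had 3 genes, 10 had 4, 2 had 5 and 2 had 6. With coding lengths within 2% in place of 5%, 6.25% of gene-rich TADs held a cluster.

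One cluster of 6 held the genes Try1 and Try2. Trypsins are serine proteases of the gut, and Try1, Try2 and 4 further genes (GJ21499, GJ21498, GJ21497 and GJ21495) lay within 11.1 kb on the minus strand of 2R, each with 1 coding exon. Coding length was 777 bp in Try2, 768 bp in Try1, GJ21499, GJ21498 and GJ21497, and 744 bp in GJ21495. The TAD that holds them (2R:20171002-20207087) had the highest density among TADs of 10 to 150 kb, with 20 coding genes in 36.1 kb or 5.54 per 10 kb. It also held RpL31, a protein of the large ribosomal subunit. A plus-strand cluster of GJ20854, GJ20849 and GJ20850, with 1 coding exon and 780, 768 and 783 bp of coding sequence, overlapped the same stretch. The annotated span of GJ20854 was 23.9 kb for 780 bp of coding sequence and ran over its neighbors.

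The other cluster of 6 ran from GJ17632 to GJ17637 on 2L. Its genes had 3 coding exons and 876 to 993 bp of coding sequence, lay within 15.0 kb, and formed the longest run of a TAD of 13 genes (2L:23265243-23303337). The clusters of 5 lay on 2R, from GJ15127 to GJ15134 with 654 to 687 bp of coding sequence in 5 exons, and on 3R, from GJ23760 to GJ23755 with 1242 to 1287 bp in 4 exons. None of these genes carries a symbol.

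The Hsp70 genes formed a cluster of a wider kind. Hsp70b, Hsp70e, Hsp70f and Hsp70g, which encode heat-inducible chaperones, lay on the plus strand of 3R in a TAD of 16 genes (3R:32188509-32273813), within 35.2 kb of each other. Hsp70b, Hsp70e and Hsp70g had 1 coding exon of 1923 bp, whereas Hsp70f was annotated with 2 coding exons and 1761 bp and therefore fell outside the cluster. GJ10098, on the minus strand, lay between Hsp70b and Hsp70e. These 4 genes were the heat shock genes found in gene-rich TADs, of 7 with an Hsp symbol in all TADs.

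Gene families could otherwise be followed only through symbols. The annotation gives a symbol other than a GJ number to 289 coding genes placed in a TAD, of which 74 lay in 51 gene-rich TADs (25.6% of them, beside 26.3% of all coding genes). Odorant-binding proteins, secreted carriers of odorants and other hydrophobic molecules, were the family with the most members. Of the 39 Obp genes in TADs, 15 lay in 7 gene-rich TADs. Obp58b, Obp58c, Obp58d and Obp59a shared a TAD of 14 genes on 2R, Obp50a, Obp50c and Obp50e shared one of 15 genes on 2R, and Obp19a, Obp19b, Obp19c and Obp19d shared one of 11 genes on X. The Obp50 genes shared their TAD with HP1J as well. None of the 3 groups met the cluster criterion, since their members differed in strand or structure. Counts in the smaller symbol families went both ways. Gene-rich TADs held 2 of 2 trypsin, 1 of 1 gustatory receptor, 4 of 7 Hsp, 4 of 8 HP1 and 3 of 5 troponin C genes. They held 1 of 6 genes with a ribosomal protein symbol, 0 of 5 with a chorion protein symbol and 0 of 2 with a cytochrome P450 symbol.

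Genes with symbols included regulators of chromatin and transcription. HP1A, a core protein of heterochromatin, lay in a TAD of 20 genes in 39.3 kb on 2L (2L:17089858-17129121, 5.09 genes per 10 kb), which had one of the highest densities and one of the lowest mean boundary scores among gene-rich TADs. HP1B on X, HP1C on 3R and HP1J on 2R lay in TADs of 18, 14 and 15 genes. In all, 4 of the 8 genes with an HP1 symbol were in gene-rich TADs, beside 26.3% of all coding genes. msl-1, a subunit of the dosage compensation complex, lay among 29 genes in 130.7 kb on 2L. Trl, which encodes the GAGA factor, Dref, a factor that binds promoters of proliferation-related genes, and TfIIB, a general transcription factor, lay in TADs of 14, 10 and 17 genes. mod(mdg4), an insulator-associated gene, spanned 29.9 kb, nearly the whole length of a TAD of 30.8 kb with 10 genes, and each gene of that TAD overlapped another.

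The remaining symbols covered varied roles. Those of the muscle were Mhc, the myosin heavy chain, in a TAD of 21 genes, and 3 of 5 genes with a troponin C symbol, TpnCIb in a TAD of 13 genes and TpnCIIIa and TpnCIIIb together in one of 11. The clock gene period (per) lay among 18 genes on X. The developmental genes osk, boss, gl and gbb lay in TADs of 12, 12, 14 and 10 genes, and tra2, a splicing regulator of sex determination, in one of 10. Desat1 and Desat2, fatty acid desaturases, were neighbors in a TAD of 17 genes. ry, the xanthine dehydrogenase gene, and CtBP, a corepressor, lay in adjacent gene-rich TADs of 14 and 10 genes on 3R.

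Among noncoding genes, those for small nucleolar RNAs (snoRNAs), which guide the modification of ribosomal RNA, were the most frequent in gene-rich TADs. Of the 165 snoRNA genes in TADs, 57 lay in 17 gene-rich TADs (34.5%), beside 26.3% of the coding genes. Of these 57, 40 lay within the span of a coding gene. The largest set, of 13, lay within GJ18677 in a TAD of 11 coding genes on X that also held mei-218, a gene of meiotic recombination. The next sets, of 8 and 5, lay in TADs of 12 genes on 2R and 3R. As snoRNA genes come in such groups, the 57 genes are not 57 independent cases.

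The other noncoding classes were less frequent. Gene-rich TADs held 36 of 270 tRNA genes (13.3%), 11 of 131 miRNA genes (8.40%), 29 of 335 genes annotated as ncRNA (8.66%) and 0 of 36 rRNA genes. They also held 13 of 116 pseudogenes (11.2%) and 2 of 30 small nuclear RNA genes (6.67%). These shares can be set against 11.7% of the sequence, which that of tRNA genes exceeded, and 26.3% of the coding genes.

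The boundaries that flank gene-rich TADs had low scores. The score is the TAD-separation score the authors' caller wrote for each boundary, and it is lower at stronger boundaries, which fewer contacts cross. The 256 TADs had 482 distinct boundaries, since 30 were shared by a pair of them. Their median score was -0.0883 (-0.102 to -0.0731), against -0.0412 (-0.0504 to -0.0288) for the 1521 boundaries that flank other TADs of 10 to 150 kb and no gene-rich one, and -0.0543 for all 2127. Scores ran from -0.508 to 0.407 at gene-rich TADs and from -0.452 to 1.09 at the others, so the sets overlapped over most of their range.

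Both ends of the distribution differed. The lowest 10% of all scores took in 72 of the 482 boundaries (14.9%, 11.9 to 18.4%), beside 9.97% of all boundaries, and 8.48% of those at other TADs. The highest 10% took in 18 (3.73%, 2.23 to 5.84%), beside 12.5% of those at other TADs. The lowest score of the whole list, -0.508, stood at the right end of a TAD of 18 genes on 2L (2L:27215666-27286546, from GJ17814 to GJ19571), whose left boundary scored 0.0901. Where only boundaries scored below the list median were kept and TADs across the weaker ones were merged, the difference nearly disappeared, with medians of -0.152 for 217 gene-rich TADs and -0.149 for the others. This setting chose boundaries by the same score that was then compared, so these medians are not a separate check of the difference.

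The scores were also set side by side within classes of TAD length, again chosen after seeing the data. The mean score of a TAD's pair of boundaries had a median of -0.0976 in gene-rich TADs of 20 to 40 kb, against -0.0137 in other TADs of that length. It was -0.0917 against -0.0250 at 40 to 60 kb and -0.0803 against -0.0276 at 60 to 100 kb. At 100 to 150 kb it was -0.0600 (-0.0767 to -0.0320) against -0.00850 (-0.0416 to 0.0169), and these intervals overlapped. Over single boundaries the medians in this class were -0.0613 and -0.0451, a smaller difference than over all lengths. The median was also lower on X, with a median boundary score of -0.120 at gene-rich TADs and -0.0667 at the others, and on 2L, 2R, 3L and 3R, with -0.0804 and -0.0331. Scores did not fall steadily with gene number, as the median of the mean score was -0.0745 in TADs of 10 to 12 genes, -0.0923 in those of 13 to 19 and -0.0767 in those of 20 or more.

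**Figure D5:**
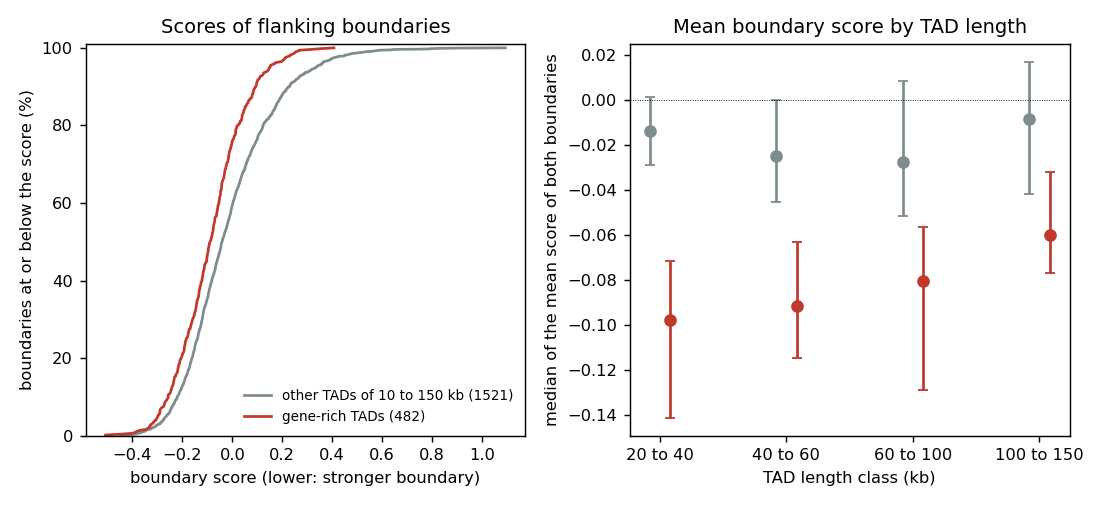
Left, cumulative share in percent of boundaries at or below each score, for the 482 boundaries of gene-rich TADs (red) and the 1521 of other TADs of 10 to 150 kb only (grey). Right, median of the mean score of a TAD's boundaries with 95% intervals by length class in kb, where gene-rich TADs lie between -0.0976 and -0.0600 and the others between -0.0276 and -0.00850.

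The scores were also taken per TAD. The lower of the scores at the ends of a gene-rich TAD had a median of -0.161 and the higher a median of -0.0176, against -0.118 and 0.0555 at the other TADs. Both boundaries lay below the list median in 90 TADs (35.2%), against 23.2% of the other TADs. The lowest mean score, -0.295, belonged to a TAD of 27 genes on 3L (3L:6296992-6374154, from GJ11482 to GJ13808), with -0.301 and -0.290 at its ends. The HP1A TAD had -0.273 and -0.291. At the other extreme, the TAD with the run of 14 genes and the assembly joint had scores of 0.0847 and 0.240, and a TAD of 11 genes on 2R (2R:9281987-9428739) had the highest mean, 0.260.

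Boundaries of gene-rich TADs lay close to start sites. An annotated start site was found within 1000 bp of the center of 366 of the 482 boundaries (75.9%, 71.9 to 79.7%), beside 65.5% of all boundaries and 62.7% (60.2 to 65.2%) of those at other TADs. The median distance to the nearest start was 0.364 kb against 0.543 kb. Start sites are also denser in gene-rich TADs, where 33.3% of the sequence lay within 1000 bp of one, against 19.0% in the other TADs. The part of this density in the shares at boundaries was not tested.

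Median scores were lower near start sites in both sets, with intervals apart only at the other TADs. Boundaries of gene-rich TADs near a start site had a median score of -0.0950 and those away from one -0.0631, with overlapping intervals (-0.114 to -0.0762 and -0.102 to -0.0316). At the other TADs the medians were -0.0661 (-0.0746 to -0.0543) and 0.0104 (-0.00325 to 0.0380). Between coding genes, the boundary centers of gene-rich TADs lay in same-strand gaps in 90 cases, divergent gaps in 83 and convergent gaps in 17, and divergent gaps made up 43.7% of these 190, beside 42.8% for all boundaries. A further 292 of the 482 centers (60.6%) lay inside the span of a coding gene, beside 54.9% of all.

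The outermost genes of gene-rich TADs were oriented about as those of other TADs. In 350 of 512 cases (68.4%) the outermost gene had its start on the boundary side, beside 67.4% over all TADs with at least 2 coding genes and 66.9% in the other TADs of 10 to 150 kb. In 123 TADs (48.0%) this held at both ends and in 29 (11.3%) at neither, beside 44.3% and 10.5% in the other TADs. The start of the outermost gene lay a median of 1.12 kb from the boundary, against 1.49 kb. Of all 3512 genes, 277 (7.89%) started within 1000 bp of a boundary center of their TAD, against 1113 of 5584 (19.9%) in the other TADs, where each pair of boundaries encloses fewer genes by the rule. Of the 74 genes with symbols 11 did, among them Dref at 0.152 kb, l(2)not at 0.142 kb, Obp44a at 0.0585 kb and mod(mdg4) at 0.451 kb.

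The same rule was applied once to the D. melanogaster boundary list, from embryos of the same stage and the strain label w1118 Oregon R, with a reference annotation. The annotations differ, so values are given side by side. Of 1699 D. melanogaster TADs of 10 to 150 kb, 338 (19.9%) held 10 or more coding genes, beside 15.9% in D. virilis. The share on X was 12.2% (35 of 287) and on 2L, 2R, 3L and 3R 21.9%, beside 10.8% and 17.1% in D. virilis, and arm 4 had 0 of 29 there, which allows a share of up to 11.9% (exact 95% upper bound).

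Symbols shared by both annotations linked single genes between the species. Of the 47 genes of D. virilis gene-rich TADs with such a symbol, 23 lay in a gene-rich TAD of D. melanogaster (48.9%, 34.1 to 63.9%). For genes of D. virilis TADs that were not gene-rich, it was 35 of 163 (21.5%, 15.4 to 28.6%). Among D. melanogaster coding genes in general, 4569 of 13911 (32.8%) lay in TADs that pass the rule. The 47 genes came from 36 TADs, so they are not 47 independent cases. Genes in gene-rich TADs of both species included TfIIB, Mhc, Trl, mod(mdg4), CtBP, boss, gl and tra2. Several Obp genes were among them as well. These were Obp58b, Obp58c, Obp58d and Obp59a from a single D. virilis TAD, Obp50a, Obp50c and Obp50e from another, and Obp99a. Genes in a gene-rich TAD of D. virilis alone included msl-1, Dref, osk, per, ry, Obp44a and Obp69a. The genes Obp19a to Obp19d lay in D. melanogaster TADs of 150 kb or longer.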

How the data were processed

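Hi-C reads were mapped with BWA, contact matrices of the 2 replicates were summed and corrected, and boundaries were called with HiCExplorer by the authors. The deposited boundary list gives a start, an end and a TAD-separation score per boundary. Per the labels and methods, the FlyBase gene annotation was moved to the Hi-C assembly by CrossMap and a chain file of scaffold pieces. Sequencing depth is not in the files used here, and no sequence of D. virilis was used.

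TADs, gene placement, strand pairs, runs and clusters were computed in Python 3.11.15 (NumPy 2.4.6, SciPy 1.17.1), with measures tested on simulated data. A gene was placed by the midpoint of its span. Coding length is that of the transcript with the longest coding sequence. A start within 1000 bp was called near. For D. melanogaster, 61.5% of the listed boundary centers lay within 500 bp of a coding-gene start of the BDGP6 annotation, against 18.2% after a shift of 5000 bp, so the annotation was used with that list. Its symbols came from that annotation.

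Members, lists and tests were chosen with earlier results of these data known. Genes were named when they carried a symbol or belonged to the 5 TADs with the most genes, highest density, longest run, largest cluster or lowest mean score. Others (TADs on arm 4, alternating TADs, snoRNA sets, extreme scores) were named after their values were seen.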

Additional observations from a re-analysis of the deposited data

How the results depend on the processing

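No paired analysis was possible because each species has 1 merged map and no list per replicate, and no replicate could be left out. The rule was varied by placing genes by their whole span or 5' end, by 12 or 8 genes, by a limit of 100 kb, by keeping boundaries scored below the list median, and by leaving out the outer 10% of each arm or TADs with a joint. The number of gene-rich TADs, 256, became 166 with 12 genes and 425 with 8, and 199 to 268 otherwise. The percentage of gene-rich TADs that lay on X (10.9%, against 17.0% of the other TADs) stayed the lower one under all 8 alternatives. This is not the share of each arm's TADs that were gene-rich, which was not varied. Median coding length stayed below that of the other TADs under all 12, 4 of them length classes added after seeing the data (1052 bp at 20 to 40 kb). Score and nearness to a start kept their direction under all 12 and all 14. For score, the setting with stronger boundaries only selected on the score itself. The median score was -0.152 with stronger boundaries only (others -0.149, a difference of -0.0027), -0.106 at 40 to 60 kb (others -0.0352) and -0.0613 at 100 to 150 kb (others -0.0451), against a difference of -0.0472 in the main comparison. The share near a start was 58.3% within 500 bp, 87.6% within 2000 bp, 81.1% at 20 to 40 kb and 67.3% at 100 to 150 kb. The share of TADs with a cluster was 5.99% with stronger boundaries only and 6.25% with coding lengths within 2%, above the other TADs under all 9. The same-strand share (41.3% with stronger boundaries only) kept the sign of its small difference under 5 of 8. The causes of these changes were not tested. Read depth is not in the files used here, so its effect on boundary placement was not assessed.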
